A study of Mus musculus with 9 samples.

Results

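Genes of the cell cycle and of DNA replication were described across the lungs of C57BL6 mice in an asthma model induced with ovalbumin (OVA, an egg-white protein used as allergen). The 46 genes were taken by name from a list covering replication, mitosis and the G1 phase, and a probe set was used when the array annotation gave it 1 symbol and that symbol was on the list. Of the 46 genes, 43 are on the array, with 59 probe sets, and 31 of them had at least 1 probe set bright enough to test, out of 5950 genes tested in all. The genes not found under their symbols are Tyms, Ccnb1 and Bub1b.

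Total lung RNA was measured on 9 arrays in 3 groups of 3. The first group, called agonist here, received OVA together with a drug that activates EP3, a receptor for prostaglandin E2. The second was challenged with OVA alone, and the third, of the same model, with saline. Sample titles give 24 h for the agonist and OVA groups. The labels name no agonist, dose, age or sex, and do not state whether the arrays of a group are separate mice, so that p-values measure the spread between arrays, which may be technical. A whole lung holds many cell types, and more dividing cells cannot be told apart from more RNA per dividing cell.

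A dividing cell copies its DNA in S phase and separates the copies in mitosis. S phase genes encode the MCM helicase that opens the DNA, the clamp that holds the polymerases (Pcna), enzymes that make nucleotides, and factors that pack new DNA into chromatin. Mitotic genes encode the kinases, motors and checkpoint proteins of the spindle, and their RNA builds up later in the cycle. In resting adult lung few cells divide, and most RNAs of both kinds are scarce.

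Intensities are given on a scale common to the 9 arrays, in arbitrary units, and are not comparable between probe sets. The detection limit, 44.7, is the 40th percentile of all values, and on each array between 59.6% and 60.6% of the probe sets lay above it. Some deposited values lie below 0. A probe set was tested when 3 or more arrays exceeded the limit. Each gene is counted once, by its brightest tested probe set, and "rose" or "fell" means an adjusted p under 0.05 over all 7920 tested probe sets. The 19 markers of airway and alveolar epithelium on the array summed to 42356 to 47537 on agonist, 37367 to 45160 on OVA and 37987 to 44973 on saline arrays. Spdef lay below the limit on all 9 arrays. These sums join markers that rose in OVA lung with others that fell. Clca1, a goblet cell gene, averaged 6166 in OVA and 57.44 in saline lung, and Cyp2f2 averaged 1834 and 3577. Similar sums therefore do not show that the epithelium was unchanged.

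In OVA lung 9 of the 31 tested genes rose relative to saline lung and 0 fell, where 4.82% of all tested genes rose and 4.67% fell. They were the S phase genes Pcna, Mcm3 and Chaf1a, the mitotic genes Cks2, Mad2l1, Birc5 and Hmgb2, and the regulators Cks1b and Ezh2. For 16 of the 31 genes all OVA arrays lay above all saline arrays, as they did for 15.3% of all tested genes, and for 1, Plk1, all lay below. In agonist lung 5 of the 31 fell relative to OVA lung and 0 rose, where 1.53% of all tested genes fell and 1.21% rose: Pcna, Chaf1a, Cks2, Mad2l1 and Ezh2. All agonist arrays lay below all OVA arrays for 16 of the 31, against 11.9% of all tested genes, and above them for 2, Mcm6 and Plk1. Between agonist and saline lung 0 of the 31 passed limma's test, and 1 had an unadjusted p under 0.05, where 0.101% of all tested genes passed. Both comparisons with OVA use the same 3 OVA arrays, so the rise and the fall are not independent of each other. Besides, 2 of the tested genes, Chaf1a and Cks2, exceeded the detection limit only on OVA arrays, and entered the test through that group. Cks1b, above the limit on 3 OVA, 2 saline and 0 agonist arrays, reached the 3 arrays needed for testing only with OVA arrays. So did the dimmer probe set of Mki67, above it on 3 OVA, 0 saline and 1 agonist arrays.

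**Figure D1:**
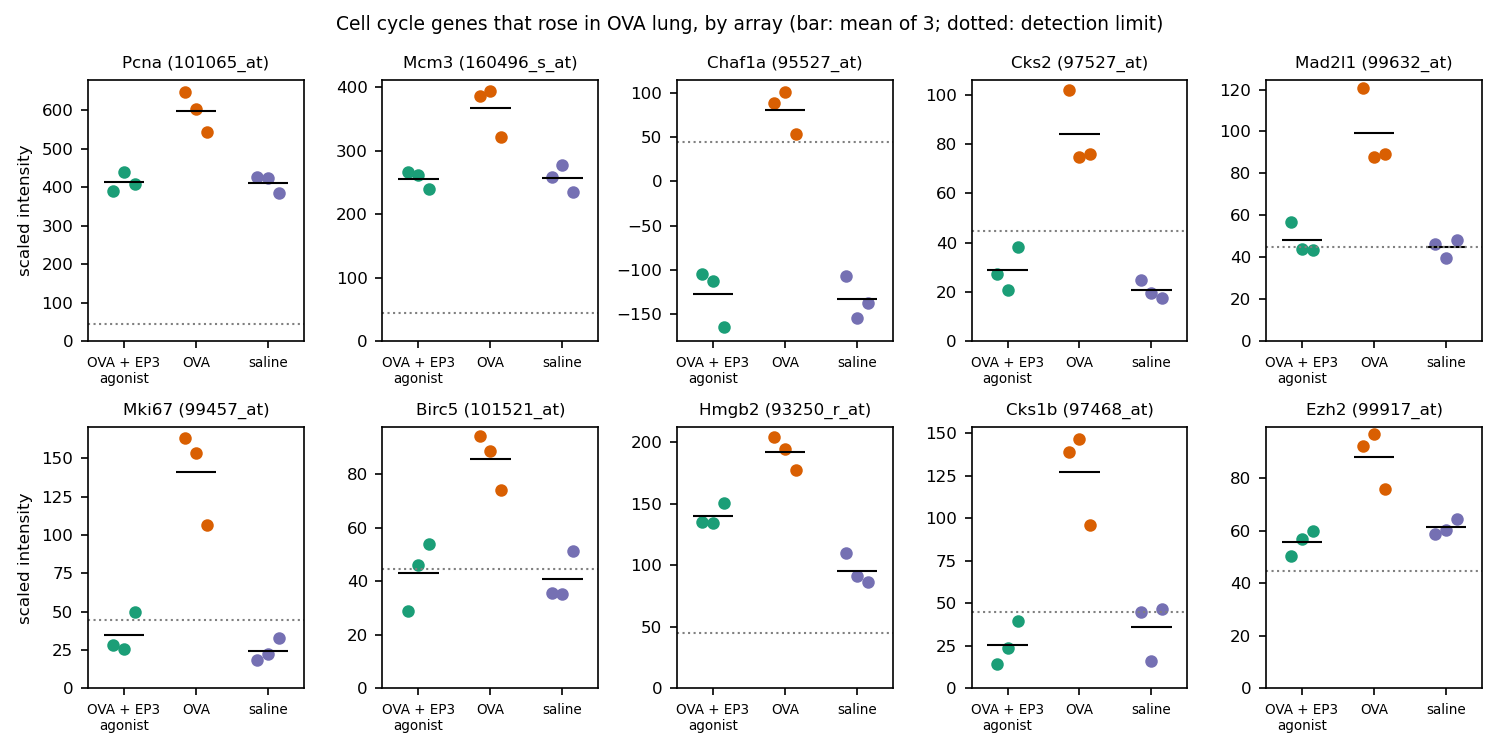
Scaled intensity (arbitrary units) of the 10 genes with a probe set that rose in OVA lung, on 3 arrays of OVA plus EP3 agonist, OVA and saline lung. Points are arrays, bars are means and the dotted line is the detection limit of 44.7. In every panel the 3 OVA points lie above the 6 others, and for Hmgb2 the agonist points (135 to 150.4) lie between OVA and saline.

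Among the replication genes, Pcna encodes the sliding clamp of DNA polymerases. Pcna read 391, 438 and 407 on agonist arrays, 648, 603 and 544 on OVA arrays and 428, 423 and 384 on saline arrays. The OVA arrays were the highest, and the other 6 overlapped. Pcna rose 1.45-fold in OVA against saline lung (log2 change 0.54 ± 0.10 SE, adjusted p = 0.0227) and fell by 0.54 on the log2 scale in agonist against OVA lung (adjusted p = 0.0426). Agonist and saline lung differed by 0.00, with a 95% confidence interval from −0.23 to 0.23 on the log2 scale.

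Mcm3, a subunit of the MCM helicase, has 2 probe sets. The brighter one, whose suffix marks probes shared by several transcripts, read 266, 262 and 239 on agonist arrays, 385, 394 and 321 on OVA arrays and 258, 277 and 235 on saline arrays. It rose 1.43-fold in OVA lung (log2 change 0.51 ± 0.11 SE, adjusted p = 0.0338). In agonist against OVA lung the log2 change was −0.52 (adjusted p = 0.0557). The other read 52.8, 65.3 and 77.2 on agonist, 128, 120.4 and 86.4 on OVA and 60.4, 56.1 and 57.4 on saline arrays, and rose 1.90-fold (adjusted p = 0.028). In both probe sets the OVA arrays lay above the 6 others, which overlapped.

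Chaf1a, the large subunit of the factor that places histones on new DNA, exceeded the detection limit in OVA lung alone. It read −105, −113 and −164 on agonist arrays, 89, 102 and 53.8 on OVA arrays and −107, −155 and −137 on saline arrays. The rise in OVA lung was at least 1.76-fold over the detection limit (adjusted p = 5.12e-05), and so was the fall in agonist lung (adjusted p = 4.19e-05). These p-values come out small because 6 values at the floor have no spread on the log2 scale. When all values below the detection limit were held at it, the log2 change was 0.82 in OVA against saline lung (adjusted p = 0.0403) and −0.82 in agonist against OVA lung (adjusted p = 0.0597). The 6 agonist and saline values are then still equal and without spread, so these p-values keep that defect.

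Of the helicase subunits that did not pass, Mcm2 read 41, 40.1 and 80.7 on agonist arrays, 127, 101 and 84.4 on OVA arrays and 57.4, 60.4 and 39.1 on saline arrays (OVA against saline, log2 change 1.00 ± 0.31 SE, adjusted p = 0.0827). Mcm4 read 111, 107 and 163 on agonist, 186, 178 and 175 on OVA and 112, 108 and 156 on saline arrays (log2 change 0.54, adjusted p = 0.122). Both had OVA arrays above all others. Mcm5, a further subunit, read 23.9, 283 and 480.3 on agonist, 452, 252 and 223 on OVA and 450.3, 249.9 and 98.3 on saline arrays with its brighter probe set, and the groups overlapped. The dimmer one read 129, 35.3 and 136 on agonist, 223, 226 and 166 on OVA and 136, 114 and 58.2 on saline arrays, with no overlap between OVA and the others (log2 change 1.07 against saline, adjusted p = 0.234). Mcm7 overlapped between all groups, at 79.8, 93.6 and 46.2 on agonist, 128, 82.7 and 64 on OVA and 81.5, 58.2 and 99 on saline arrays. Mcm6 read 47.7, 53.4 and 48.6 on agonist, 13.2, 5.06 and 39.2 on OVA and 53.8, 46.4 and 3.4 on saline arrays. Its agonist arrays lay just above the limit and its OVA arrays below it (agonist against OVA, adjusted p = 0.349).

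Fen1, the nuclease that trims Okazaki fragments, read 56, 79.2 and 95.7 on agonist arrays, 129, 131 and 112 on OVA arrays and 40, 83.4 and 58.1 on saline arrays. Its OVA arrays were the highest, and the change against saline did not pass (2.14-fold, adjusted p = 0.053). Rrm2, a subunit of the reductase that makes deoxynucleotides, showed the same order on a smaller scale, at 46.5 to 66.6 on agonist, 68.6 to 81.7 on OVA and 51.8 to 63.9 on saline arrays (log2 change 0.39, adjusted p = 0.153). Cdc6, which loads the helicase, overlapped between groups. Tk1, the thymidine kinase, was highest in saline lung, at −35.3 to 51.3 on agonist, 6.37 to 79.3 on OVA and 53.8 to 133 on saline arrays, and did not pass (OVA against saline, log2 change −1.40 ± 1.28 SE). Ccne1, the cyclin of the G1 to S step, varied more within groups than between them, reading 151, 193 and 57.2 on agonist, −54.2, −108 and 505 on OVA and 127, 176 and −128 on saline arrays.

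Among mitotic genes, Cks2 encodes a small subunit that binds cyclin-dependent kinases. Cks2 read 27.4, 20.7 and 38.4 on agonist arrays, 102, 74.8 and 76.2 on OVA arrays and 24.7, 19.7 and 17.4 on saline arrays, so that OVA arrays alone passed the detection limit. The rise was at least 1.87-fold over that limit (log2 change 2.04 ± 0.25 SE, adjusted p = 0.00949), and the log2 change from OVA in agonist lung was −1.58 ± 0.25 SE (adjusted p = 0.0363). With values held at the limit these changes were 0.90 and −0.90.

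Mad2l1, which holds back anaphase at the spindle checkpoint, read 57, 43.9 and 43.4 on agonist arrays, 121, 88 and 89.2 on OVA arrays and 46.5, 39.4 and 48.3 on saline arrays. It rose 2.20-fold in OVA lung (log2 change 1.14 ± 0.17 SE, adjusted p = 0.0136) and fell 2.06-fold in agonist lung (−1.04 ± 0.17 SE, adjusted p = 0.0366). Only 1 of 3 agonist and 2 of 3 saline arrays exceeded the detection limit. With values held at that limit these changes were 1.08 and −1.02. Birc5, the chromosomal passenger protein survivin, read 29, 46 and 53.9 on agonist, 94.3, 88.8 and 74 on OVA and 35.8, 35.3 and 51.2 on saline arrays. It rose (adjusted p = 0.0381), by 0.87 on the log2 scale with values held at the limit, which 2 of 3 saline arrays did not reach. Agonist lung differed from OVA lung by −0.83 on that scale, at an adjusted p of 0.0687 before values were held. For both genes the OVA arrays stood above the others, and agonist and saline arrays overlapped.

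Hmgb2, a chromatin protein abundant in dividing cells, kept its agonist arrays apart from the saline arrays. It read 135, 135 and 150.4 on agonist arrays, 204, 195 and 177 on OVA arrays and 109.9, 90.9 and 86.2 on saline arrays, and the 3 groups did not overlap. It rose 2.02-fold in OVA lung (log2 change 1.01 ± 0.12 SE, adjusted p = 0.00912). Agonist lung differed from OVA lung by −0.45 ± 0.12 SE (adjusted p = 0.0748), and from saline lung by 0.56 with a 95% confidence interval from 0.29 to 0.83 (adjusted p = 0.307). The suffix of its probe set marks probes picked after some selection rules were dropped. The counted probe sets of Mki67 and Mcm5 carry the same suffix.

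Mki67, the proliferation antigen Ki-67, gave different answers with its 2 probe sets. With the dimmer one it read 28.3, 25.6 and 49.9 on agonist arrays, 163, 153 and 107 on OVA arrays and 18.6, 22.1 and 32.9 on saline arrays. That probe set rose at least 3.1-fold (log2 change 2.54 ± 0.32 SE, adjusted p = 0.00965) in OVA lung and fell in agonist lung (adjusted p = 0.0356), by 1.58 on the log2 scale with values held at the limit, since 2 of 3 agonist arrays lay below it. With the other, slightly brighter on average and therefore the one counted, it read 56.3, 63.3 and 73.7 on agonist, 88.7, 76.2 and 67.1 on OVA and 55.8, 68.8 and 61.2 on saline arrays, and the groups overlapped (log2 change 0.32 against saline, adjusted p = 0.2).

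Other mitotic genes did not pass. Ccnb2, a B-type cyclin, read 127, 162 and 181 on agonist arrays, 258, 248 and 222 on OVA arrays and 173, 183 and 143 on saline arrays, with OVA arrays highest (log2 change 0.55 ± 0.16 SE against saline, adjusted p = 0.0676). Cdc20, an activator of the anaphase-promoting complex, read 85.7, 174 and 185 on agonist, 192, 203 and 182 on OVA and 97.2, 169.6 and 163 on saline arrays. Its OVA and saline arrays did not overlap, and 1 agonist array reached the OVA range. Stmn1, a microtubule destabilizer, read 443, 412 and 417 on agonist, 476, 508 and 471 on OVA and 480.0, 393 and 427 on saline arrays, and OVA overlapped with saline.

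In the opposite direction, the brightest probe set of Plk1, a kinase of mitotic entry, read 374, 219 and 301 on agonist arrays, 174, 214 and 191 on OVA arrays and 280.2, 269 and 219.6 on saline arrays. OVA arrays were the lowest (log2 change −0.40 ± 0.20 SE against saline, adjusted p = 0.223, and 0.60 for agonist against OVA, adjusted p = 0.127). The suffix of this probe set marks probes that match a family of transcripts. Another probe set of Plk1 with that suffix stayed below the limit and had the reverse order, with OVA arrays highest. It read −0.516 to 10.7 on agonist, 17.6 to 21.3 on OVA and 4.47 to 13.6 on saline arrays. A further tested probe set of Plk1 overlapped, at 112, 38.3 and 14.2 on OVA and 159, 5.1 and 81.1 on saline arrays (log2 change −0.04). Cenpa, the centromeric histone, overlapped between groups, at 165, 144 and 216 on agonist, 112, 192 and 70.1 on OVA and 137, 165 and 157 on saline arrays. Foxm1, a transcription factor of mitotic genes, also overlapped, at 84.9, 38.4 and 0.516 on agonist, 40.8, 59.9 and 70.7 on OVA and 94.8, 53.1 and 89.8 on saline arrays. Ccna2, the cyclin of S and G2 phase, lay below 0 on 1 OVA array and 2 saline arrays, and its change had a standard error of 1.71.

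Regulators split by kind. Cks1b, the paralog of Cks2 that also serves in breakdown of a kinase inhibitor, read 14.2, 23.5 and 39.3 on agonist arrays, 139, 147 and 96.1 on OVA arrays and 44.8, 16.1 and 46.4 on saline arrays. It rose in OVA lung (adjusted p = 0.0492), by 1.47 on the log2 scale with values held at the limit, which 1 of 3 saline arrays did not reach. Agonist lung lay below OVA lung by at least 2.80-fold, at an adjusted p of 0.0501. Ezh2, the methyltransferase of Polycomb complex, read 50.4, 56.9 and 59.9 on agonist, 92.2, 96.9 and 75.9 on OVA and 58.8, 60.5 and 64.6 on saline arrays. It rose 1.43-fold (adjusted p = 0.0371) and fell 1.58-fold in agonist lung (adjusted p = 0.0421), and in both genes OVA arrays lay above all others.

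Cyclins and kinases of G1 did not pass. Ccnd1, cyclin D1, read 498, 616 and 646 on agonist arrays, 672, 643 and 654 on OVA arrays and 641, 716 and 604 on saline arrays, a log2 change of 0.01 against saline with a 95% confidence interval from −0.27 to 0.29. Ccnd2, cyclin D2, read 135, 239 and 163 on agonist, 169.9, 103 and 205 on OVA and 155, 159 and 167 on saline arrays. Cdk4, their kinase, read 477, 438 and 443 on agonist, 534, 519 and 489.6 on OVA and 465, 476 and 484 on saline arrays, a log2 change of 0.11 (interval −0.07 to 0.29) with OVA just above saline. Cdkn1a, the kinase inhibitor p21, read 243, 176 and 194 on agonist, 232, 215 and 232 on OVA and 165, 196 and 218 on saline arrays, and the groups overlapped (log2 change 0.24, adjusted p = 0.328). The second probe sets of Ccnd1 and Cdk4 did not pass in any of the 3 comparisons.

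**Figure D2:**
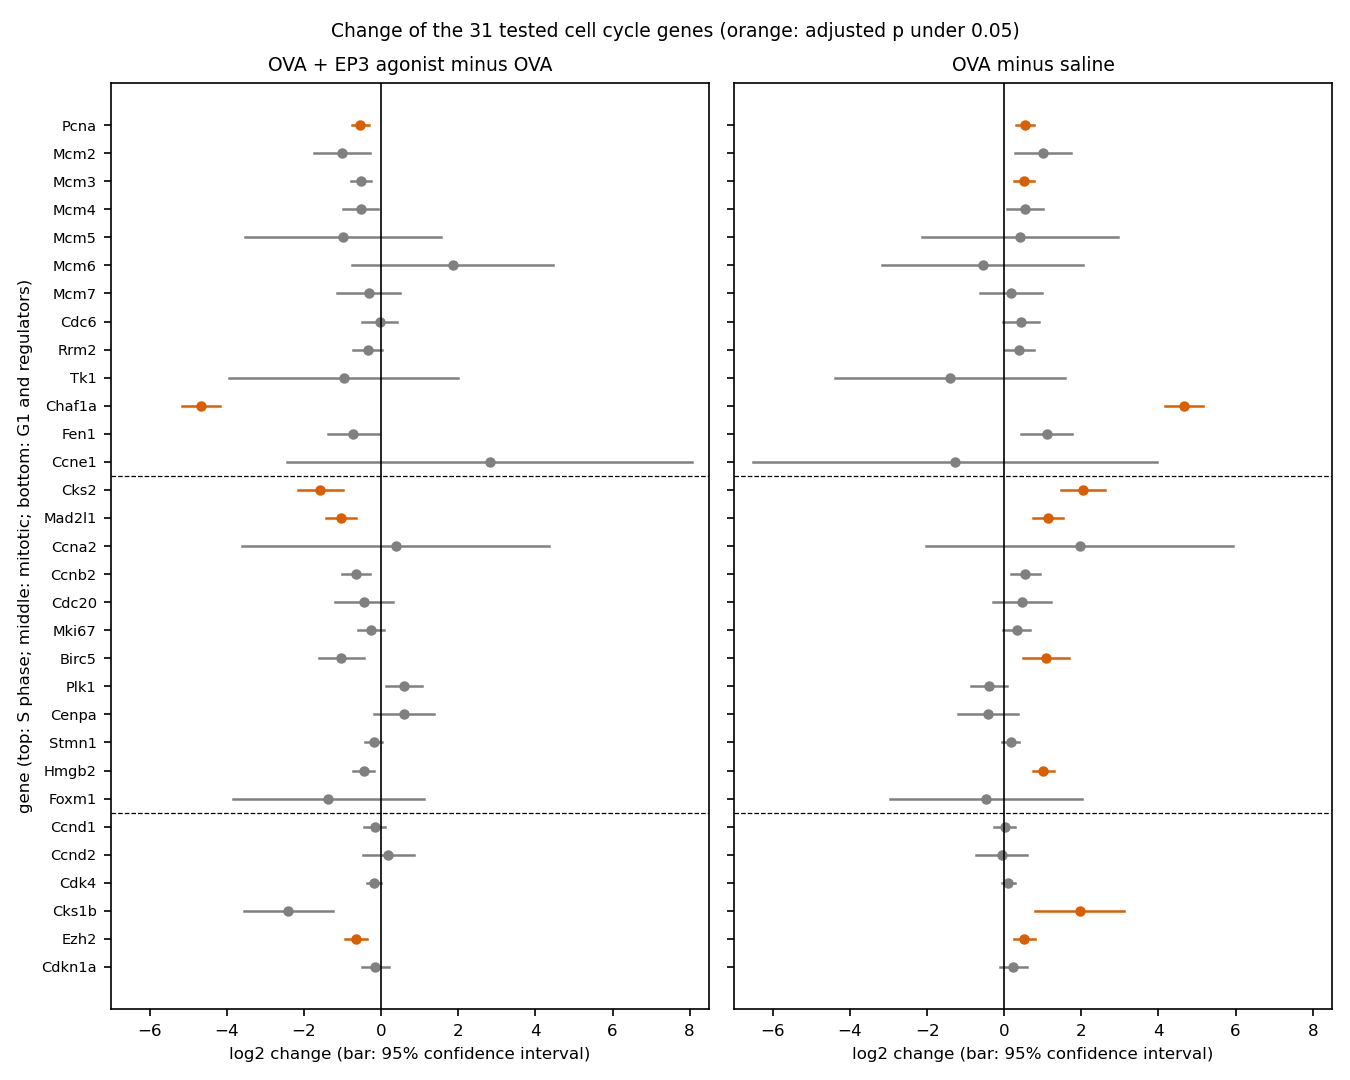
Log2 change of the 31 tested genes, by their brightest tested probe set, for OVA plus EP3 agonist minus OVA (left) and OVA minus saline (right). Points are estimates, bars 95% confidence intervals, and orange marks an adjusted p under 0.05. The 9 orange points on the right all lie above 0 and the 5 on the left all below. Ccne1, Ccna2, Mcm5, Mcm6, Tk1 and Foxm1 have intervals several units wide.

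S phase and mitotic genes were set side by side. Of 13 tested S phase genes 3 rose in OVA lung and of 12 tested mitotic genes 4 did, with median log2 changes of 0.43 and 0.51, where the median of all tested genes was −0.08. In agonist against OVA lung 2 of each group fell, with medians of −0.53 and −0.45 beside 0.07 over all genes. In agonist against saline lung the medians were 0.00 and 0.08. The estimate was above 0 in OVA against saline lung for 10 of 13 S phase and 9 of 12 mitotic genes. These medians leave out genes that were too dim, and no difference between both groups was tested.

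**Figure D3:**
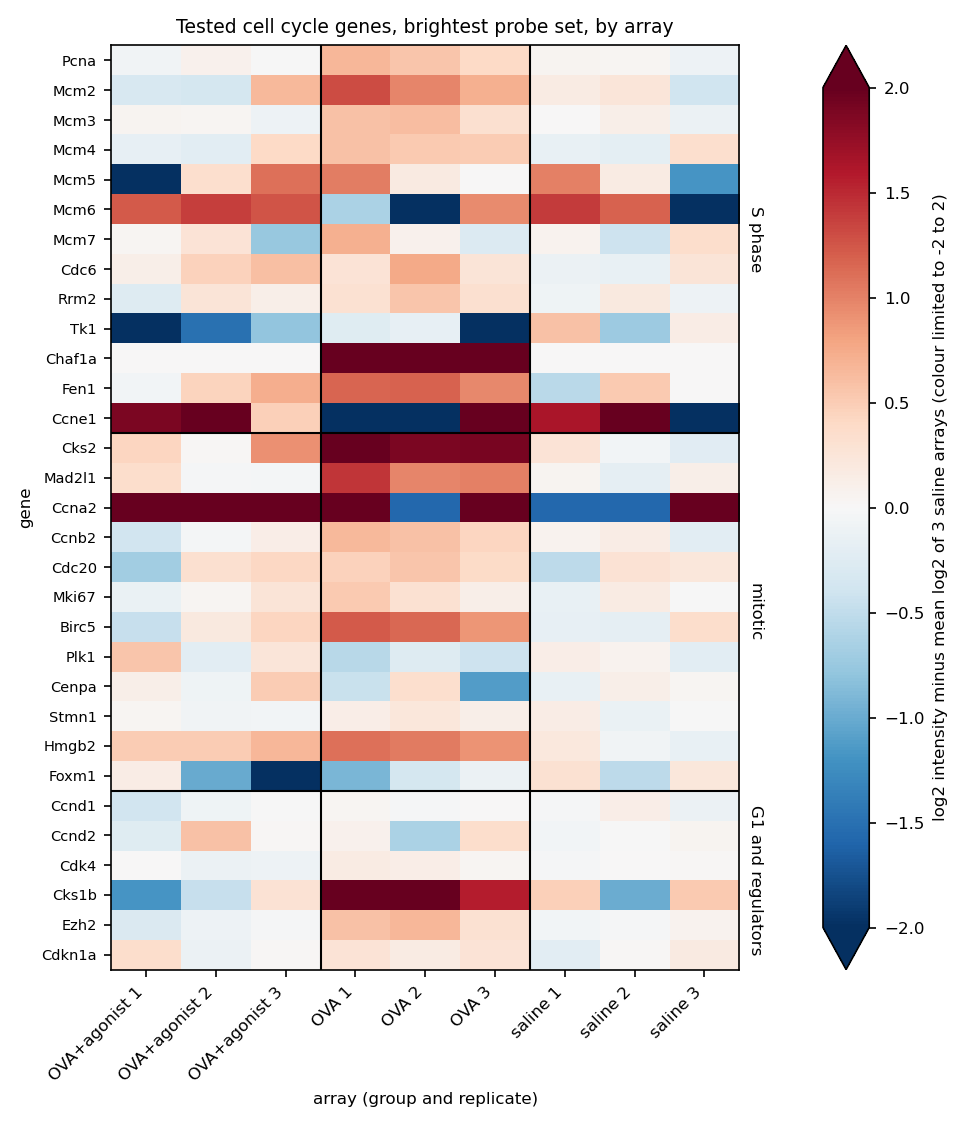
Log2 intensity of each tested gene on each array minus the mean log2 of its 3 saline arrays, with genes in rows by role and arrays in columns, agonist left, OVA in the middle and saline right. Red is above saline and blue below, with colours limited to −2 and 2. For the 9 genes that rose, the 3 OVA columns are redder than the 6 others. Mcm6, Tk1, Ccne1, Plk1, Cenpa, Foxm1 and Ccnd2 have OVA minus saline estimates below 0.

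The 12 genes that were on the array and not tested are Cdc45, Rrm1, Lig1, Prim1, Cdk1, Top2a, Bub1, Aurka, Aurkb, Kif11, Kif20a and Racgap1. Their brightest probe sets exceeded the limit on at most 2 arrays, all OVA arrays. For 7 of the 12, all mitotic, the 3 OVA arrays lay above the 3 saline arrays, where 12% of all 2301 untested genes did so. Cdk1, the kinase that drives mitosis, read 18.8, −7.12 and −3.74 on agonist arrays, 10.7, 65.8 and 106 on OVA arrays and −7.22, −4.25 and −12.6 on saline arrays. Kif11, the spindle motor Eg5, read 13.6, 5.49 and 1.93 on agonist, 31, 25.6 and 25.8 on OVA and 13.6, 13.1 and −7.64 on saline arrays. Kif20a, a motor of cytokinesis, read −11, −16.7 and 9.67 on agonist, 41.9, 33.9 and 34.4 on OVA and −1.8, −24.4 and 4.85 on saline arrays, all below the limit. Top2a, the topoisomerase that untangles chromosomes, read −18.7 to −51.1 on agonist, −14.4 to 25.4 on OVA and −28.5 to −38.9 on saline arrays. Among S phase genes Prim1, a primase subunit, read 24.4, 25.6 and 21.0 on agonist, 66.4, 39.9 and 53.4 on OVA and 30.1, 26.1 and 44.2 on saline arrays. Values of this size have no measured level, and no fold is given for them.

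Further genes of the same processes were taken from lists that go beyond the 46. Of 28 tested mitotic genes 7 rose in OVA lung and 0 fell, and of 23 tested replication genes 2 rose and 0 fell, beside the 4.82% of all tested genes that rose. Plk4, the kinase that starts centriole duplication, averaged 66.86 ± 5.34 in agonist, 122.3 ± 6.38 in OVA and 68.52 ± 1.38 in saline lung (SD, n = 3 each). It rose 1.78-fold in OVA lung (adjusted p = 0.00854) and fell 1.83-fold in agonist lung (adjusted p = 0.00849). Smc2, a condensin subunit, rose 1.92-fold (log2 change 0.94 ± 0.18 SE, adjusted p = 0.0261). Ect2, which acts in cytokinesis, rose at least 1.68-fold (adjusted p = 0.0289). H2az1, a histone variant, rose 1.46-fold (1272 ± 77.5 in OVA and 871.0 ± 48.9 in saline lung, adjusted p = 0.0172) and fell 1.36-fold in agonist lung (937.7 ± 37.0, adjusted p = 0.0475). The other 3, Tubb5, Ran and Ranbp1, rose by 1.32-fold to 1.42-fold, from saline averages of 983.8, 1379 and 209.9. The suffix of the Tubb5 probe set marks a family of transcripts, and that of Ranbp1 dropped selection rules. All 3 lay well above the detection limit in saline lung, and whether their RNA came from dividing cells was not tested.

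On the replication side, Rpa1, the large subunit that coats single-stranded DNA, averaged 195.8 ± 21.6 in agonist, 359.2 ± 39.4 in OVA and 226.5 ± 34.7 in saline lung (SD, n = 3 each). It rose 1.59-fold in OVA lung (adjusted p = 0.0347) and fell 1.83-fold in agonist lung (adjusted p = 0.0381). Uhrf1, a factor needed for copying DNA methylation onto new strands, rose at least 1.46-fold in OVA lung (adjusted p = 0.046). Of 30 tested genes of G1 and of checkpoints 0 rose and 1 fell, Cdkn1c, the kinase inhibitor p57, which averaged 214.0 ± 42.8 in OVA and 393.9 ± 29.4 in saline lung (adjusted p = 0.0335). The median log2 change in OVA against saline lung was 0.34 for the mitotic list, 0.35 for the replication list and −0.03 for the list of G1 and checkpoint genes. In agonist against OVA lung 2 mitotic genes and 2 replication genes (Rpa1 and Rpa3) fell, beside the 1.53% of all tested genes that fell. Of the genes of G1 and checkpoints 0 fell. An unadjusted p under 0.05, in either direction, was reached by 7 of the 30, with 16 estimates above 0 and 14 below.

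Promoters of the listed genes were searched for motifs known from cell cycle genes. Each RefSeq promoter window (GRCm38.p6) runs from 250 bases before to 50 after the transcript start, and 38 of the 46 genes have 43 windows in the table used. Searched on both strands were TTTGAA, the core of the cell cycle homology region that the DREAM complex binds, CCAAT, the box of the factor NF-Y, and 3 forms of the E2F motif counted together, of which the first is TTCGCGC, a second form is TTGGCGC, and the last form is TTCCCGC. The homology region letters TTTGAA occur in 12 of 17 mitotic windows (70.6%) and 3 of 21 S phase windows (14.3%), and in 17.9% of all 32851 windows. An E2F motif occurs in 3 of 17 mitotic windows (17.6%) and 12 of 21 S phase windows (57.1%), and in 8.07% of all windows. CCAAT is in 15 of 17 mitotic windows (88.2%), 12 of 21 S phase windows (57.1%) and 37.4% of all windows. Windows of 1 gene can overlap, no difference between roles was tested, and a match of letters shows no binding.

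**Figure D4:**
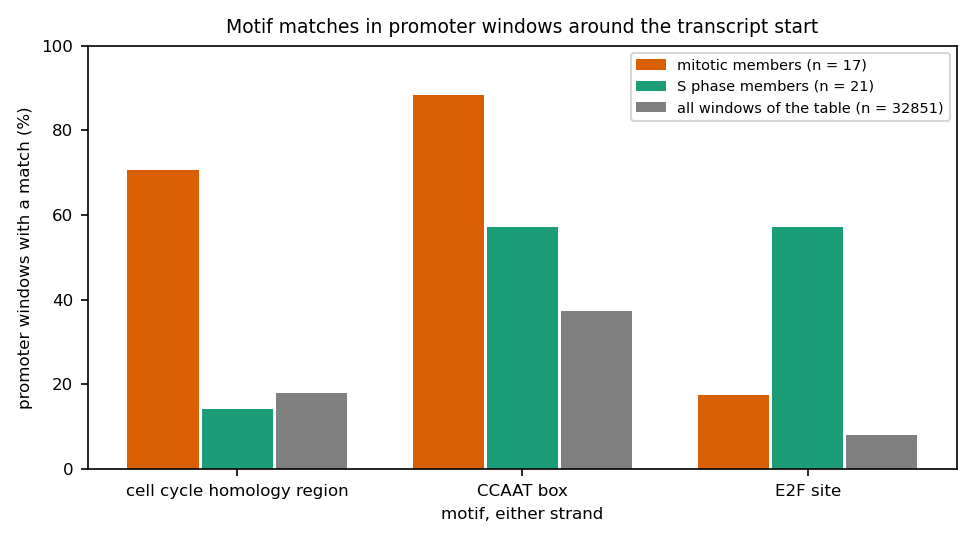
Share of promoter windows (%) with a match to each motif, for 17 windows of mitotic genes, 21 of S phase genes and all 32851 windows. The homology region is in 70.6% of mitotic windows against 14.3% of S phase windows, and the E2F motifs are in 17.6% against 57.1%.

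The 250 bases before the start are shown for 6 genes with a probe set that rose in OVA lung, to set replication genes beside mitotic ones and a regulator. Capitals mark matches to the motifs above on either strand (so that ATTGG marks a CCAAT box, and TTCAAA a homology region, on the opposite strand), and sequences run 5′ to 3′ along the gene's strand.
Pcna, chr2:132253181-132253430, minus strand: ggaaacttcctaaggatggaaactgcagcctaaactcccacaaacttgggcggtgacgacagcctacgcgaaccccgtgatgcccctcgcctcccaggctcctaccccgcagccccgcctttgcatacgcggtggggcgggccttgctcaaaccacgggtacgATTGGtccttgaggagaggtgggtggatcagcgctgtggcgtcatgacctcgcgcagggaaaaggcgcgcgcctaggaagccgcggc
Chaf1a, chr17:56040166-56040415, plus strand: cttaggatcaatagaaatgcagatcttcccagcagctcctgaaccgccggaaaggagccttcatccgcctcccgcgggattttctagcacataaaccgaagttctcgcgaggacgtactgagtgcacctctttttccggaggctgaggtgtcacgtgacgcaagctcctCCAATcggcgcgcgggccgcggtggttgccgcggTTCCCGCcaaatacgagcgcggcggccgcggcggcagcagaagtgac
Cks2, chr13:51644982-51645231, plus strand: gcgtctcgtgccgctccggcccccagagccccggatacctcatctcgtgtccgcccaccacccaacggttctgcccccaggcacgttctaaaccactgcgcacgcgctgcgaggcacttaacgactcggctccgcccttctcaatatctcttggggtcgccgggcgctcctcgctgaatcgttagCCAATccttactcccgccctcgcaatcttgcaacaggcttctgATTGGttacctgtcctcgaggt
Hmgb2, chr8:57511593-57511842, plus strand: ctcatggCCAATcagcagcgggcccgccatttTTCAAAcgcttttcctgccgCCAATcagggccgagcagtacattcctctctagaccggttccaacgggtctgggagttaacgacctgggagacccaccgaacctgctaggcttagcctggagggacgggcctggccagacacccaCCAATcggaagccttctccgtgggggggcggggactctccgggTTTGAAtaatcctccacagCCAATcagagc
Mki67, chr7:135716380-135716629, minus strand: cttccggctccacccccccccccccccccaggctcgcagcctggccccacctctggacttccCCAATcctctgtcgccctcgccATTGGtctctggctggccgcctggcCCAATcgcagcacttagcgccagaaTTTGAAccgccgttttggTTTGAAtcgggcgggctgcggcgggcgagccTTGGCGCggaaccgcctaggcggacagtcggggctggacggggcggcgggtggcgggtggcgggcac
Cks1b, chr3:89418292-89418541, minus strand: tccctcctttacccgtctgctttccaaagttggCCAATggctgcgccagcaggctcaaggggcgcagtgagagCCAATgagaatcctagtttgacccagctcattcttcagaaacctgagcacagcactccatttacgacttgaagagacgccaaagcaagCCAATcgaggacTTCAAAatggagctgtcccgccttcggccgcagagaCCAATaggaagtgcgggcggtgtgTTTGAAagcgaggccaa

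Chaf1a carries a CCAAT box and an E2F motif. Mki67 carries 3 CCAAT boxes, 2 copies of TTTGAA and 1 E2F motif. Hmgb2 and Cks1b each carry 4 CCAAT boxes and 2 copies of the homology region. Cks2 has 2 CCAAT boxes here and no other match, and Pcna has 1 CCAAT box. In the windows of Mad2l1 and Birc5, which rose as well, none of these letters was found.

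Markers of several other cell types changed in the same comparisons, some upward and some downward. Their part in the changes of the cell cycle genes was not tested. Over all tested genes 4.82% rose and 4.67% fell in OVA against saline lung, and 1.21% rose and 1.53% fell in agonist against OVA lung. Of 18 tested markers of macrophages and dendritic cells 11 rose and 1 fell in OVA lung, and the 21 on the array summed to 13662 to 18906 on agonist, 21334 to 23006 on OVA and 11644 to 12517 on saline arrays, with Marco below the limit on all arrays. Of 14 tested markers of T and NK cells 0 passed limma's test in OVA against saline lung, 2 at an unadjusted p under 0.05. The 21 on the array summed to 1310 to 1524 on agonist, 1409 to 1664 on OVA and 1267 to 1513 on saline arrays, with Cd3e, Cd3g, Cd8a, Cd8b1, Cd5, Il2ra and Ctla4 below the limit on all arrays. Of 16 tested B and plasma cell markers 2 rose, Jchain and Irf4, and the 18 on the array summed to 2993 to 4897 on agonist, 4993 to 5933 on OVA and 3385 to 4160 on saline arrays, with Cd22 and Cr2 below the limit.

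The 18 granulocyte markers on the array summed to 2216 to 6638 on agonist, 3548 to 4799 on OVA and 1909 to 2059 on saline arrays. Of 11 tested 2 rose in OVA lung, Lcn2 and Alox15, and Ngp, Mmp8, Prg2, Epx and Il5ra were below the limit on all arrays. Alox15 averaged 197.4 in OVA, −32.32 in saline and −16.1 in agonist lung. Its rise and fall were at least 4.1-fold over the detection limit, and both calls rest on values at the floor, as for Chaf1a. Of 8 tested red cell markers, which can include dividing precursors, 1 rose and 3 fell in OVA lung, and 12 summed to 13635 to 16007 on agonist, 10276 to 11774 on OVA and 14811 to 16981 on saline arrays, with Epb42, Gata1, Car1 and Epor below the limit. Of 15 tested endothelial markers 9 fell in OVA lung, where 4.67% of all tested genes fell, and the 16 on the array summed to 19076 to 20182 on agonist, 14587 to 16100 on OVA and 19797 to 20034 on saline arrays, with Nos3 below the limit. Of 11 tested heart muscle markers 6 fell, and the 13 on the array summed to 4586 to 5452 on agonist, 3452 to 4238 on OVA and 4620 to 5705 on saline arrays, with Ryr2 and Myl2 below the limit. Of 17 tested epithelial markers 4 rose, among them the goblet cell genes Clca1, Agr2 and Tff2, and 3 fell, among them the club cell gene Cyp2f2. Clca1 averaged 6166 ± 756 in OVA and 57.44 ± 8.40 in saline lung (SD, n = 3 each, adjusted p = 0.0115), and Agr2 lay below the limit on all saline arrays. In agonist against OVA lung the macrophage and dendritic cell genes C1qa, C1qb and Mmp12 fell. So did the granulocyte marker Alox15 and the red cell marker Car2, each against the direction of most of its list. The 11 tested granulocyte markers had a median log2 change of 0.51 there, with 7 estimates above 0 and 4 below. For the 8 tested red cell markers the median was 0.41, with 6 above 0 and 2 below. Lyz2, Hba-a1, Cyp2f2, 3 endothelial and 2 heart muscle markers rose, and 0 T, NK, B or plasma cell markers passed limma's test, 3 and 7 of them at an unadjusted p under 0.05.

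How far single calls rest on single arrays differed between genes. In OVA against saline lung Hmgb2 and the dimmer probe set of Mki67 passed whichever of the 9 arrays was dropped. Chaf1a and Cks2 passed when any of the 6 saline and agonist arrays was dropped, and with an OVA array dropped they fell under the filter. For Mad2l1 the adjusted p went above the threshold only on dropping saline replicate 2 (0.0513). Pcna did not pass on dropping any 1 of the saline arrays, OVA replicate 1 or OVA replicate 2 (up to 0.0865), and neither did Mcm3 or Ezh2, which also needed agonist replicate 2 (up to 0.117 and 0.124). Birc5 and Cks1b lost theirs without any 1 saline or OVA array and without agonist replicate 2 (up to 0.127 and 0.147). Of the falls in agonist against OVA lung, that of Chaf1a passed in the 6 cases in which it was testable, with all its agonist and saline values at the floor. The others lost their calls without agonist replicate 1 or 2, without saline replicate 1 or 2, and, where testable, without OVA replicate 1 or 2. Over all arrays left out, the adjusted p reached 0.106 for Cks2, 0.131 for Mad2l1 and for Mki67, and 0.145 for Pcna and Ezh2. Cks2, Mad2l1, Pcna and Ezh2 also lost theirs without saline replicate 3, and Mad2l1 without OVA replicate 3. Without agonist replicate 3 the count of genes that fell was 10, against 5 with it. Without OVA replicate 1 or 2 the count was 0, with 9 and 11 genes at an unadjusted p under 0.05 in either direction. In a fit of the 6 compared arrays alone, Mcm3, Cks1b and Ezh2 did not pass in OVA against saline lung, and of the genes that fell in agonist lung Chaf1a alone passed, a call that rests on values at the floor and did not pass with values held at the detection limit (adjusted p = 0.0597).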

How the data were processed

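The authors deposited 1 linear intensity for each probe set on each array, some below 0; how these were summarized and background-corrected is not given in the sources used here. Of 12488 probe sets 66 controls were left out; 10833 carry 1 gene symbol, 396 several and 1193 none. Arrays were multiplied by 0.741 to 1.29 to equal 2% trimmed means. Values under 3.10, the 20th percentile, were raised to it before log2. Probe sets above 44.7 on at least 3 of 9 arrays were tested (7920). One limma 3.58.1 fit (R 4.3.3, lmFit and eBayes, two-sided, 6 residual and 1.69 prior degrees of freedom) held all 9 arrays, with Benjamini-Hochberg adjustment over the 7920. It was also run on simulated data with independent normal noise. These held no values at the floor, so that run does not bear on calls that rest on the floor. "At least" folds divide the brighter group's geometric mean by 44.7, where all 3 arrays of the dimmer group lay at or below it. The number of arrays limits the precision. Genes, lists and comparisons were chosen with earlier results of these data known. Values on all arrays are given for genes that passed and for all regulators. They are also given for the 6 brightest others among S phase and among mitotic genes, with a few more as ranges. Of other lists up to 4 passing genes are named per list and comparison. The mitotic list in OVA against saline lung is the exception, with all 7 named. Alternatives were other normalizations, floors, filters and probe set rules, a fit of 6 arrays alone, a replicate block and leaving out each array. Same-numbered arrays of OVA and saline lung deviated together by correlations of 0.17, 0.11 and 0.04, which does not pair them.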

Additional observations from a re-analysis of the deposited data

How the results depend on the processing

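Of the 17 calls of probe sets of listed genes none changed direction in the settings run: 171 values kept the call and 93 lost it. The number of listed genes called in OVA against saline lung was 9, between 9 and 11 under other normalizations, floors and no filter, 4 with a filter at the 60th percentile (15 genes tested), and 2 to 12 with 1 array left out. In agonist against OVA lung it was 5, and 1 with the 6 arrays compared alone, 8 with probe sets averaged per gene, and 0 to 10 with 1 array left out. The median log2 change of mitotic genes was 0.51 in OVA against saline lung, 1.11 without the filter, which adds dim genes whose changes depend on the floor, and 0.42 to 0.80 with 1 array left out; in agonist against OVA lung it was −0.45, and −0.86 without the filter; in agonist against saline lung it was 0.08, and 0.05 to 0.26 with 1 array left out. Medians of S phase genes moved less than the spread between arrays in each alternative run.

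Over all probe sets, 752 passed in OVA against saline lung (80 to 857 with 1 array left out). In agonist against OVA lung 218 passed, 361 with the floor at the 40th percentile, 445 with the filter at the 60th, 18 with the 6 arrays alone and 7 to 526 with 1 array left out. In agonist against saline lung 6 passed, 3 with the filter at the 60th percentile and 5 to 16 with 1 array left out. A replicate block in the fit left 50, 14 and 2 probe sets and 4, 1 and 0 listed genes past the threshold in the 3 comparisons. Each OVA array correlated best with its own saline number, and agonist arrays did not correlate best with their own OVA number; the titles give no basis for pairing. The cause of these shifts was not tested.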

Other observations

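Agonist replicate 3 held the highest of the 3 agonist values for 17 of the 31 tested genes (54.8%), beside 35.6% of all 5950 tested genes. By role it did so for 8 of 12 mitotic genes (66.7%) and 6 of 13 S phase genes (46.2%). Among all 287 genes that rose in OVA lung the share was higher, at 74.9%, and among the 9 listed genes that rose it was 55.6%. The order is therefore not particular to the cell cycle genes.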
